A study of Mus musculus with 18 samples.

Results

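The transient receptor potential (TRP) channels examined here are 8 genes taken by symbol, Trpa1, Trpm6, Trpm7, Trpm4, Trpv6, Trpc1, Trpv2 and Trpv4, out of 45777 genes in a count table of mouse colon RNA. The table held 18 libraries in 6 groups of 3. The groups were DKO (Lao1-/- Il4i1-/-) with dextran sulfate sodium (DSS), DKO with water, LAO1KO (Lao1-/-) with DSS, LAO1KO with water, wild type (WT) with DSS and WT with water. DSS is a sulfated polysaccharide that injures the colon epithelium, and it was given at 2.5% in the drinking water for 24 h, while the other mice drank sterile water. Every mouse was a germ-free C57BL/6J male aged 8 weeks, so no group had a resident microbiota, and both knockout lines carry the Lao1 deletion. The 2 deleted genes code for enzymes that oxidise L-amino acids and release hydrogen peroxide. The material was whole colon tissue.

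TRP channels are cation channels that open in response to chemical, thermal, osmotic or second-messenger cues. Trpm6 and Trpm7 carry a kinase domain fused to the pore and admit magnesium, and Trpm6 is the channel of active magnesium uptake in the large intestine and the distal kidney tubule. Trpa1 detects reactive irritants, including hydrogen peroxide, and is found in sensory nerves and in enterochromaffin cells. Trpm4 is opened by calcium inside the cell but passes sodium and potassium, and Trpv6 is the apical calcium channel of vitamin D-regulated absorption. Trpc1 is linked to store-operated calcium entry, Trpv2 to muscle and immune cells, and Trpv4 to osmotic and mechanical sensing.

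Total counts ran between 26003174 and 36553193 per library, and 18848 genes passed the filter on low counts. The median Pearson correlation with the other 17 libraries (log2 CPM) was lowest in WT water replicate B (0.9529), LAO1KO water replicate A (0.9628) and WT DSS replicate C (0.9645), and the next was 0.9675. These 3 are called below the libraries that stood apart, a cut made after seeing the data, although 0.9645 lay close to 0.9675. Mitochondrially encoded mRNAs took 14.3 to 44.9% of the counts in DSS libraries and 6.89 to 20.7% in water libraries. Il4i1 summed with the overlapping model Il4i1b was at 0 in 5 of 6 DKO libraries and at 0.363 CPM in DKO DSS replicate B, against 0.491 to 2.94 CPM in the 12 LAO1KO and WT libraries. Lao1 was near the floor everywhere, at 0 to 0.367 CPM in the 12 knockout libraries and 0 to 0.148 CPM in the 6 WT libraries, and so gives no check of the LAO1KO label.

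Per kilobase of the longest coding transcript, Trpm4 stood highest of the 8 channels, with a mean level of 69.4 CPM per kilobase over the 18 libraries. CPM here are counts normalised to each library's total after TMM scaling, which corrects for composition. Trpm7 averaged 10.4 and Trpm6 7.43 CPM per kilobase, followed by Trpv2 at 2.06, Trpc1 at 0.954, Trpa1 at 0.440, Trpv4 at 0.222 and Trpv6 at 0.0127. Trpm4 alone made up 49.2 to 62.3% (median 55.0%) of the summed level per kilobase of the 28 TRP family genes listed. The lysosomal channels Mcoln1 (14.9 CPM per kilobase) and Mcoln2 (8.15) and the ciliary channel Pkd2 (6.57) lay among the members, and the tuft cell channel Trpm5 made up a median of 1.12% of the sum. Trpc2 and the menthol receptor Trpm8 had no count in any library, and Trpv1, the capsaicin receptor of sensory nerves, averaged 0.101 CPM, with 0 to 8 counts per library.

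**Figure D1:**
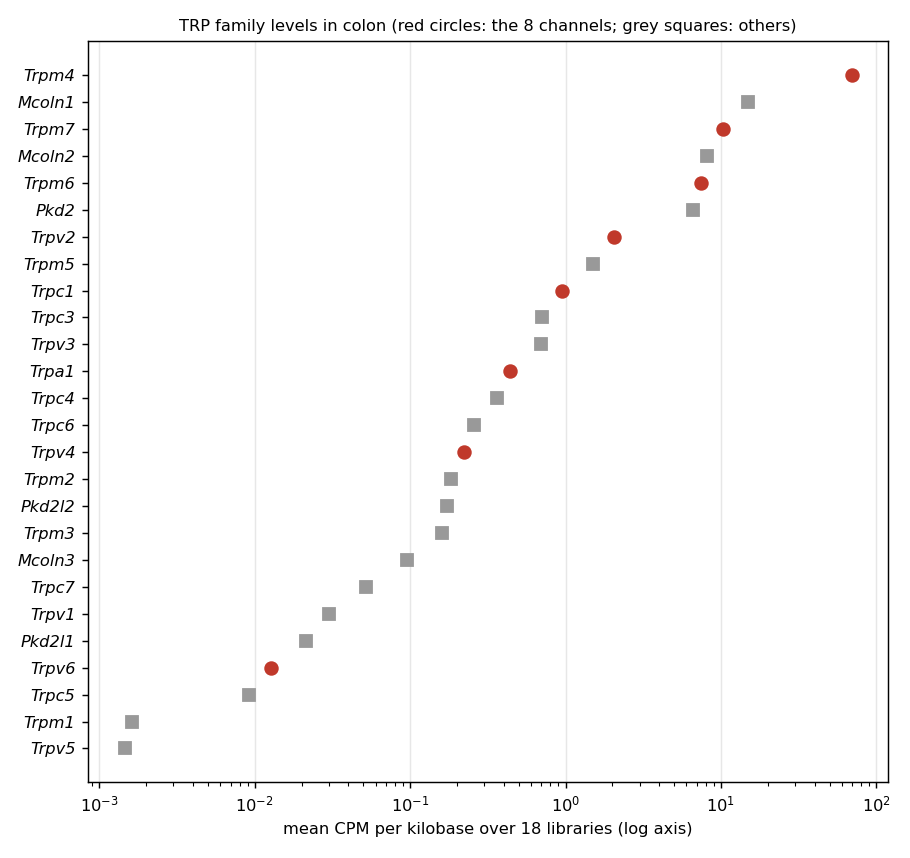
Mean level of each TRP family gene with any count, in CPM per kilobase of its longest coding transcript over 18 libraries, on a log axis; red circles mark the 8 channels described here and grey squares the others. Trpm4 stands highest at 69.4 CPM per kilobase, and Trpv6, at 0.0127, is near the bottom.

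Of the 8 channels 2 were lower with DSS, Trpm6 and Trpa1. Averaged over the 3 genotypes, Trpm6 was 1.76-fold lower with DSS and Trpa1 2.68-fold lower, and none of the other 5 channels tested passed. Trpv6 did not pass the filter. Of the 7 members tested, 2 were called at an adjusted p under 0.05 (edgeR quasi-likelihood test, Benjamini-Hochberg over all genes), both lower, where 15.9% of all genes tested were called and 9.18% were called lower. The median log2 fold change of the 7 members was 0.09, against 0.03 over all genes tested.

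Trpm6 (GRCm38, chr19:18749983-18892511, plus strand) was lower in every DSS library than in any water library. In DKO mice it stood at 42.2, 38.5 and 37.6 CPM with DSS, against 67.4, 47.6 and 53.1 CPM with water. In LAO1KO mice it stood at 27.1, 21.3 and 39.6 CPM with DSS, against 71.5, 65.3 and 58.3 CPM with water. In WT mice it stood at 40.0, 29.9 and 40.7 CPM with DSS, against 74.3, 55.5 and 61.2 CPM with water. The 9 DSS libraries therefore ended at 42.2 CPM and the 9 water libraries began at 47.6 CPM, a separation in this direction that 0.918% of the genes tested showed. The log2 fold change averaged over genotypes was -0.82 ± 0.11 (SE, 95% interval -1.05 to -0.58, edgeR adjusted p = 4.13e-04), the 240th most negative of 18848 genes. Without the 3 libraries that stood apart it was -0.86 (adjusted p = 4.16e-04).

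Trpa1 (chr1:14872648-14918862, minus strand) was scarce, with 8 to 148 counts per library, and its level with DSS was lower in all 3 genotypes. In DKO mice it stood at 1.48, 1.15 and 1.005 CPM with DSS, against 3.46, 2.97 and 1.60 CPM with water. In LAO1KO mice it stood at 0.923, 0.294 and 1.10 CPM with DSS, against 3.29, 1.82 and 1.30 CPM with water. In WT mice it stood at 1.11, 1.51 and 0.529 CPM with DSS, against 4.12, 4.49 and 1.62 CPM with water. Within each genotype no DSS library reached a water library, which 1.90% of genes showed in this direction, but across genotypes the ranges met, at 0.294 to 1.51 CPM with DSS and 1.30 to 4.49 CPM with water. The log2 fold change averaged over genotypes was -1.42 ± 0.29 (SE, 95% interval -2.03 to -0.81, edgeR adjusted p = 0.0042), the 51st most negative of all genes. Without the 3 libraries that stood apart it was -1.11 (adjusted p = 0.0141). In whole tissue, fewer cells that express a gene and less of its RNA per cell cannot be told apart.

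**Figure D2:**
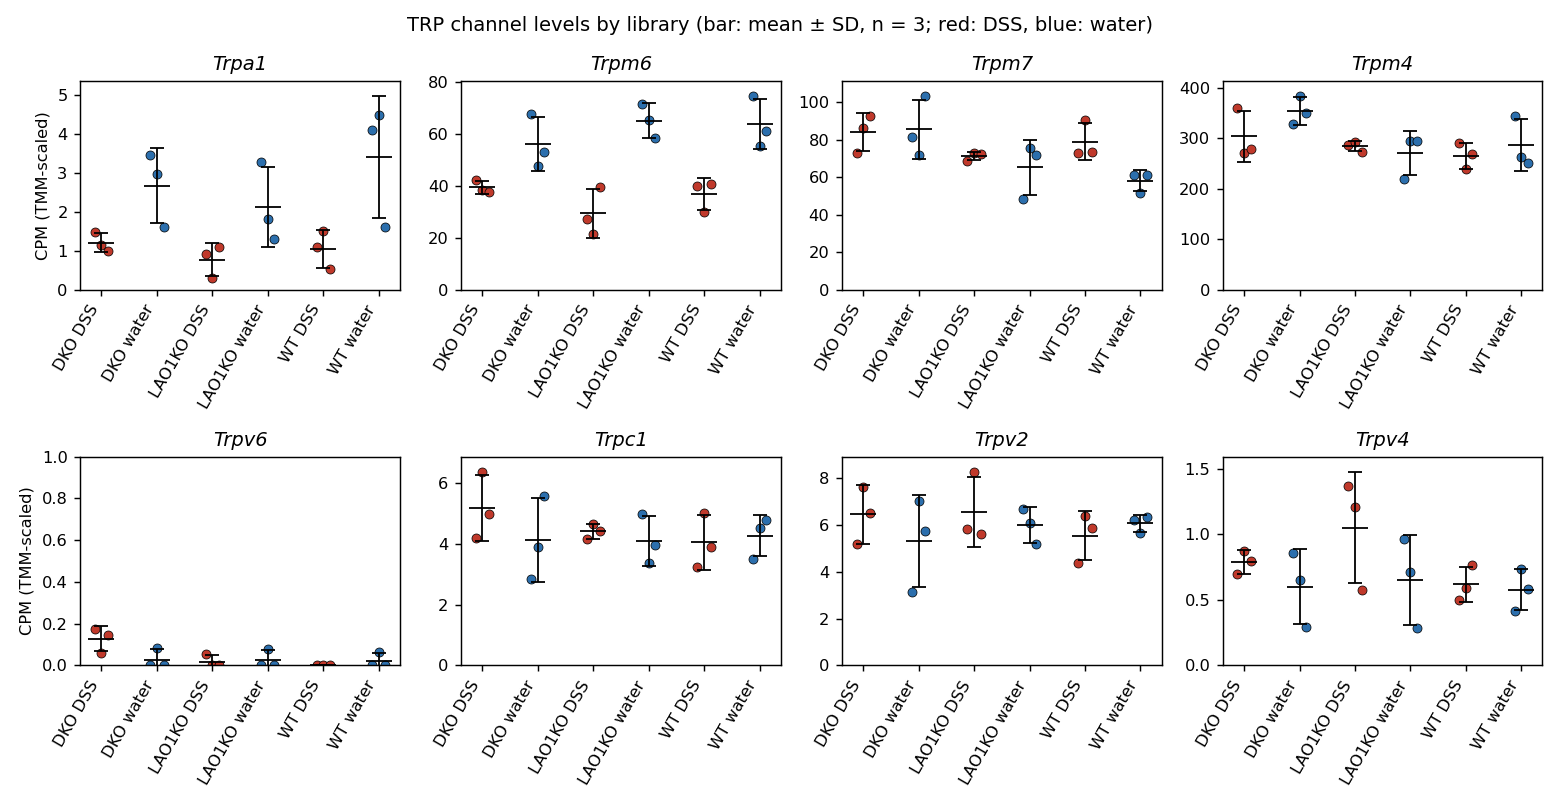
Level of each of the 8 channels in every library, in CPM scaled by TMM, by group; points are single libraries (red DSS, blue water), bars the mean ± SD of 3. The DSS libraries of Trpm6 all lie at or under 42.2 CPM and its water libraries at or above 47.6 CPM, while the groups of Trpm4, Trpc1, Trpv2 and Trpv4 overlap between treatments.

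Trpm7 (chr2:126791565-126876230, minus strand), the ubiquitous partner of Trpm6 in magnesium uptake, was not called. It averaged 78.0 ± 9.13 CPM with DSS and 69.5 ± 16.6 CPM with water (SD, n = 9 each), a log2 fold change of 0.18 ± 0.09 (edgeR adjusted p = 0.190). Without TMM scaling these means were 74.3 CPM with DSS and 73.9 CPM with water. Unscaled CPM divide by all counts, of which mitochondrial mRNAs averaged 23.8% with DSS and 11.9% with water. The ratio of Trpm6 to Trpm7, each per kilobase, averaged 0.521 ± 0.101 in DKO DSS, against 0.731 ± 0.171 in DKO water (SD, n = 3 each). It averaged 0.450 ± 0.141 in LAO1KO DSS, against 1.15 ± 0.401 in LAO1KO water. It averaged 0.521 ± 0.139 in WT DSS, against 1.20 ± 0.120 in WT water. All 6 LAO1KO and WT water libraries exceeded every DSS library, whereas the DKO water libraries, which began at 0.564, overlapped with the DSS libraries, which ended at 0.635.

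**Figure D3:**
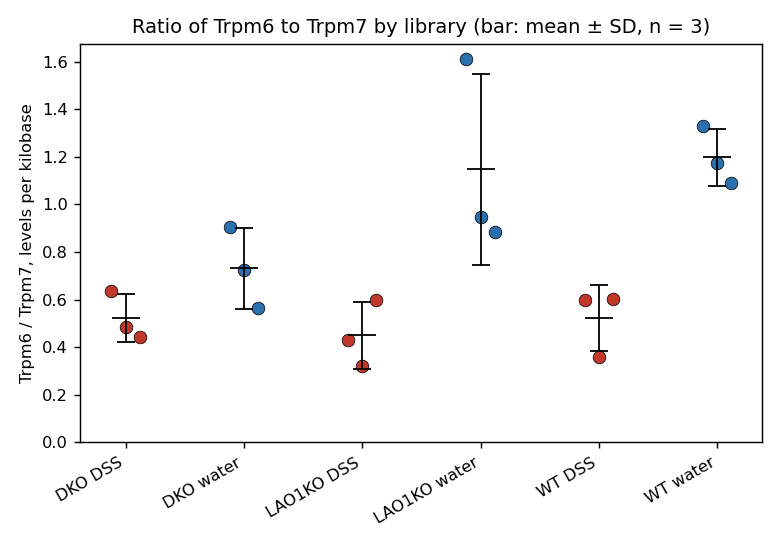
Ratio of the Trpm6 level to the Trpm7 level, each in CPM per kilobase, in every library; points are single libraries (red DSS, blue water) and bars the mean ± SD of 3. The 9 DSS libraries run between 0.319 and 0.635 and the 9 water libraries between 0.564 and 1.61.

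The promoters of this pair are shown because the channels share a role yet only Trpm6 was called for DSS averaged over genotypes. Whether the DSS responses of the pair differ was not tested, nor was any part of the promoters in them. Each line gives the 250 bases before the RefSeq start of transcription (GRCm38.p6), 5′ to 3′ on the gene's own strand, with the letters CACGTG, the E-box bound by clock and other bHLH factors, in capitals. The Trpm6 stretch is chr19:18749480-18749729 on the plus strand and that of Trpm7 is chr2:126876262-126876511 on the minus strand.
Trpm6: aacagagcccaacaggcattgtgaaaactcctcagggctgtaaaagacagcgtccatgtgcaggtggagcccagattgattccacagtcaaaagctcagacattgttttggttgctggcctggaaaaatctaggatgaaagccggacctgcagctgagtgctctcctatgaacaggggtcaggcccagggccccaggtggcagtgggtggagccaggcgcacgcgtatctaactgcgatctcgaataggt
Trpm7: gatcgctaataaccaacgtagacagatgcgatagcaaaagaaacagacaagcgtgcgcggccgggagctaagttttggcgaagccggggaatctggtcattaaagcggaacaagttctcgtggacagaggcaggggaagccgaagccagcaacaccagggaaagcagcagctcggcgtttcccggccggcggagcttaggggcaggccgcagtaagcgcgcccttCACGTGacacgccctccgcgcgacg
The Trpm7 stretch holds 1 E-box of these letters, whose first base is at position -25, and the Trpm6 stretch holds none. The Trpm6 stretch ends upstream of the gene start given above, 18749983, and the bases next to that start were not searched. Promoters were searched on both strands, 250 bases before to 50 after the start, for the E-box (in 7.15% of 32851 RefSeq promoters), the D-box TTATGTAA (0.938%) and the ROR element core AGGTCA (16.3%). Of the 6 members whose promoters matched, Trpm7 held 2 E-boxes, the other with its first base at position 16 after the start, and Trpv6 held 2 ROR element cores, at -191 on the opposite strand and at -165 on the gene's own strand. The letters do not show that a factor binds there.

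Within single genotypes the same 2 channels had the most negative values. In DKO, 0 members passed in edgeR, DESeq2 or limma, where 0.0159% of all genes were called in edgeR. At an unadjusted p under 0.05 there were 2, Trpm6 at -0.51 ± 0.19 (adjusted p = 0.414) and Trpa1 at -1.14 ± 0.49 (adjusted p = 0.474). In LAO1KO only Trpm6 of the 7 members passed, at -1.15 ± 0.19 (edgeR adjusted p = 0.0247), where 0.196% of genes were called and 0.191% called lower. Trpa1 had -1.46 ± 0.51 there (adjusted p = 0.191). The Trpm6 call in LAO1KO was lost without LAO1KO DSS replicate A or B or without LAO1KO water replicate B or C, with adjusted p values up to 0.177.

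In WT both passed, Trpm6 at -0.79 ± 0.19 (edgeR adjusted p = 0.0150) and Trpa1 at -1.66 ± 0.50 (adjusted p = 0.0380), where 12.9% of genes were called and 6.59% called lower. The Trpm6 call was lost without WT water replicate A (adjusted p = 0.0691). The Trpa1 call was lost without WT DSS replicate A or C or WT water replicate A or B (adjusted p up to 0.143), and without the 3 libraries that stood apart it was -1.15 (adjusted p = 0.216). Trpm7 stood at 72.8, 90.5 and 73.5 CPM in WT DSS libraries, against 61.1, 51.5 and 61.2 CPM in WT water libraries. These groups did not overlap after TMM scaling, a separation that 18% of genes tested showed in this direction. The log2 fold change of 0.45 ± 0.16 did not pass (adjusted p = 0.0802). Without TMM scaling, Trpm7 averaged 64.6 CPM in WT DSS and 64.2 CPM in WT water, so its higher level in WT DSS depended on the scaling. The unscaled totals include mitochondrial mRNAs, at 26.1 to 44.9% of counts in WT DSS libraries and 6.89 to 9.08% in WT water libraries.

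**Figure D4:**
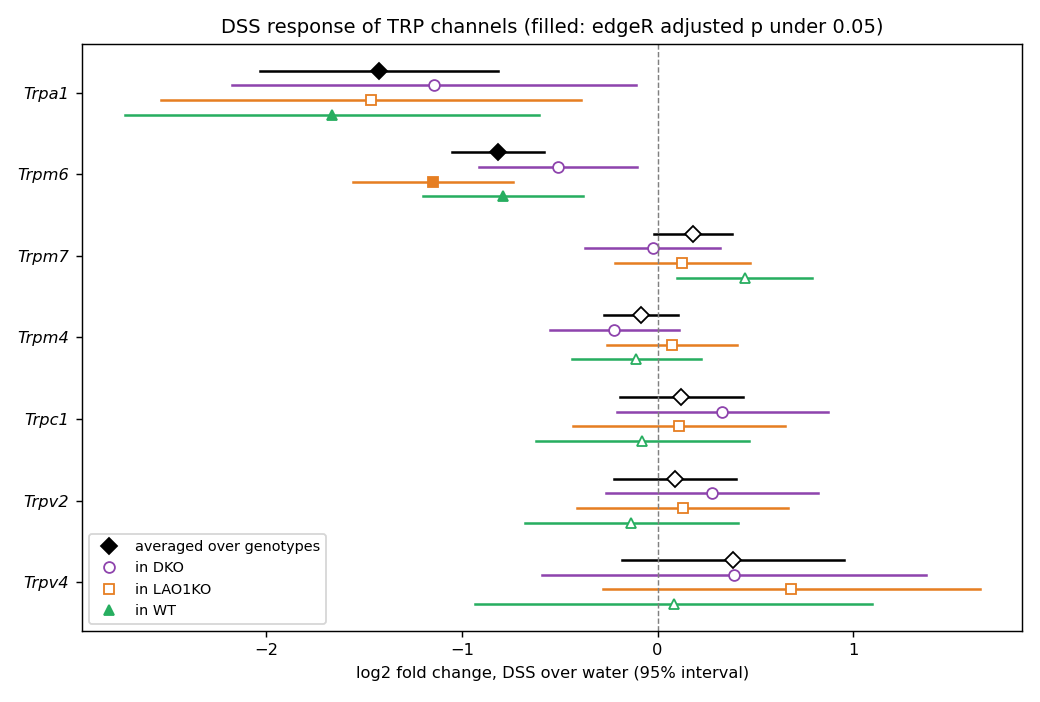
Log2 fold change of DSS over water for the 7 channels tested, averaged over genotypes and in DKO, LAO1KO and WT, with 95% intervals; filled symbols passed an edgeR adjusted p of 0.05. The intervals of Trpm6 and Trpa1 lie below 0 in all 4 comparisons, and those of Trpm4, Trpc1, Trpv2 and Trpv4 span 0.

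The difference in DSS response between genotypes was tested directly, and 0 members passed in edgeR, DESeq2 or limma, with 0 at an unadjusted p under 0.05. In edgeR 0% of all genes passed for LAO1KO against WT, with 3005 genes at an unadjusted p under 0.05, 441 called by DESeq2 and 2324 by limma. For DKO against WT 0.0584% passed in edgeR. The response of Trpm6 differed by -0.36 ± 0.27 between LAO1KO and WT (log2, 95% interval -0.93 to 0.21) and by 0.28 ± 0.27 between DKO and WT (-0.29 to 0.85). For Trpa1 these differences were 0.20 ± 0.71 (-1.30 to 1.71) and 0.52 ± 0.70 (-0.94 to 1.99). Intervals this wide leave room for differences as large as the response itself.

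Genotype alone moved no member past the threshold in edgeR, DESeq2 or limma. The share of all genes called in edgeR was 0.621% for DKO against WT under water, 0.255% for DKO against WT under DSS, 0.239% for DKO against LAO1KO averaged over treatments, 0.0531% for LAO1KO against WT under water and 0.0849% for LAO1KO against WT under DSS. At an unadjusted p under 0.05 there was 1 member in the first of these and 2 in the third, with 0 in the other 3. Under water, Trpm7 stood at 81.3, 71.8 and 102.9 CPM in DKO, against 61.1, 51.5 and 61.2 CPM in WT. All 3 DKO libraries lay above all 3 WT libraries, a separation that 11.6% of genes tested showed in this direction, with a log2 fold change of 0.56 ± 0.16 (edgeR adjusted p = 0.118), and LAO1KO water libraries, at 48.5, 75.3 and 71.9 CPM, overlapped with both. Against LAO1KO, DKO had log2 differences of 0.31 ± 0.12 for Trpm7 (adjusted p = 0.635) and 0.24 ± 0.11 for Trpm4 (adjusted p = 0.685).

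Trpm4 (chr7:45302632-45333780, minus strand) lies 461.8 kb from Il4i1, which is deleted in DKO but not in LAO1KO. Its log2 difference of DKO against WT was 0.31 ± 0.16 under water (edgeR adjusted p = 0.323) and 0.19 ± 0.16 under DSS (adjusted p = 0.686). Trpm4 stood at 360.9, 270.9 and 279.3 CPM in DKO DSS, against 328.2, 382.8 and 351.1 CPM in DKO water. It stood at 285.8, 293.6 and 273.8 CPM in LAO1KO DSS, against 220.0, 295.0 and 295.5 CPM in LAO1KO water. It stood at 289.8, 238.6 and 268.0 CPM in WT DSS, against 344.9, 263.3 and 250.4 CPM in WT water. The treatments overlapped in all 3 genotypes, and the averaged log2 fold change was -0.09 ± 0.09 (95% interval -0.28 to 0.11, edgeR adjusted p = 0.547), so a 2-fold change lay outside its interval. Without TMM scaling, Trpm4 averaged 317.3 CPM in DKO DSS against 371.9 CPM in DKO water, and 283.8 against 284.0 CPM in LAO1KO. In WT the unscaled means were 214.4 CPM with DSS and 316.6 CPM with water, from totals that include the mitochondrial mRNAs.

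Trpv6 (chr6:41620624-41636405, minus strand) was almost silent. It had 6, 2 and 5 counts in the DKO DSS libraries, and 23 counts in all over 18 libraries, with 0 in 11 of them. It did not pass the filter and has no test. All 3 WT DSS libraries were at 0, and a count of 0 allows up to 3 counts, or 0.111 to 0.176 CPM in these libraries, counting error only. Of the other calcium absorption genes, the vitamin D receptor Vdr averaged 452.1 CPM and the calcium buffer S100g 3.29 CPM, while the calcium buffer Calb1 averaged 0.617 CPM with DSS and 0.415 CPM with water, and Cyp24a1, the vitamin D-degrading enzyme, was at 0 in all 9 DSS libraries and in 8 of 9 water libraries.

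Trpc1 (chr9:95705082-95750375, minus strand) averaged 4.54 ± 0.876 CPM with DSS and 4.16 ± 0.871 CPM with water (SD, n = 9 each), a log2 fold change of 0.12 ± 0.15 (edgeR adjusted p = 0.610). Trpv2 (chr11:62574486-62600515, plus strand) ranged over 4.38 to 8.26 CPM with DSS and 3.15 to 7.04 CPM with water, at 0.09 ± 0.15 (adjusted p = 0.712). Without TMM scaling both means turned round, to 4.36 CPM with DSS against 4.41 with water for Trpc1 and 5.914 against 6.203 for Trpv2. The totals behind these unscaled means include the mitochondrial mRNAs, whose average share was higher with DSS. Trpv4 (chr5:114622152-114658421, minus strand) ranged over 0.499 to 1.37 CPM with DSS and 0.286 to 0.965 CPM with water, at 0.39 ± 0.27 (adjusted p = 0.342). These 3 channels overlapped between treatments in every genotype.

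The nearest patterns among 13486 genes averaging at least 1 CPM were taken by Pearson's r of log2 CPM over the 18 libraries, which share depth and composition, so they are descriptions. Trpm6 was nearest to the tight junction gene Cldn12 (r = 0.93) and Trpa1 to the growth factor gene Bmp5 (r = 0.92), and r within groups was 0.69 and 0.86 for these pairs. Trpm7 was nearest to Zmym6 (r = 0.94) and to Rictor (r = 0.93), a subunit of the mTORC2 kinase. Trpv2 was nearest to Pdlim7 (r = 0.92) and to Acta2 (r = 0.90), the smooth muscle actin, Trpc1 to Dnajb5 (r = 0.87), Trpm4 to Atp13a1 (r = 0.86) and Trpv4 to Stimate (r = 0.74). Among the members themselves, Trpa1 and Trpm6 had the highest r, 0.78, and Trpc1 and Trpv2 followed at 0.68.

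Genes that handle the same ions were counted against the 15.9% of all genes called for DSS averaged over genotypes. Of 18 magnesium handling genes tested, 0 rose and 2 fell, the magnesium transport genes Slc41a2 at -0.32 ± 0.10 (edgeR adjusted p = 0.0326) and Mrs2, of the mitochondrial inner membrane, at -0.27 ± 0.08 (adjusted p = 0.0361). The list's median was -0.09. The basolateral magnesium exporter Cnnm4 averaged 218.8 ± 28.9 CPM with DSS and 268.5 ± 52.1 CPM with water (SD, n = 9 each, adjusted p = 0.0595). Slc41a2 kept its call in 12 and Mrs2 in 9 of the 18 fits that left out 1 library. Neither passed without the 3 libraries that stood apart (edgeR adjusted p = 0.0565 for Slc41a2 and 0.0557 for Mrs2), and the list had 0 calls there and without DKO DSS replicate B or C, DKO water replicate A, LAO1KO water replicate C or WT water replicate B.

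Of 10 calcium absorption and vitamin D genes tested, 2 fell and 1 rose, with a median of -0.11. The plasma membrane calcium pump Atp2b1 ranged over 113.2 to 142.9 CPM with DSS and 165.8 to 202.7 CPM with water. Its groups did not overlap, and its log2 fold change was -0.52 ± 0.07 (edgeR adjusted p = 2.71e-04). Rxra, the partner receptor of Vdr, fell (-0.27 ± 0.09, adjusted p = 0.0393) and the calcium channel gene Cacna1d rose (0.45 ± 0.13, adjusted p = 0.0328), but they kept their calls in only 5 and 8 of the 18 fits that left out 1 library. Of 14 calcium release and store-operated entry genes, 2 fell and 0 rose, with a median of -0.09. The endoplasmic reticulum calcium sensor Stim1 averaged 57.3 ± 4.19 CPM with DSS and 74.9 ± 8.31 CPM with water (SD, n = 9 each), at -0.38 ± 0.06 (adjusted p = 0.0014), and the inositol trisphosphate receptor Itpr2 fell by 0.38 ± 0.08 (adjusted p = 0.0075).

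Of 12 further TRP channels tested, 0 passed in edgeR, with 6 at an unadjusted p under 0.05, 4 called by DESeq2 and 3 by limma. Their median log2 fold change was 0.21. Mcoln2 came nearest, at 22.3 ± 2.45 CPM with DSS and 18.8 ± 2.18 CPM with water (SD, n = 9 each, adjusted p = 0.0514). Trpv3, a warmth-sensitive channel, ranged over 0.967 to 5.23 CPM with DSS and 0.962 to 15.4 CPM with water (adjusted p = 0.125).

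Several measures of the libraries moved with DSS beside Trpm6 and Trpa1, and their part in these results was not tested. Counts of markers that fell or rose are edgeR calls for DSS averaged over genotypes, where 15.9% of all genes were called. Mean log2 CPM per list was compared by an exact permutation test within genotypes, adjusted over 13 measures. The lists were chosen with earlier results of these data known. The enterochromaffin (adjusted p = 0.02275) and enteric neuron and glia lists (0.01408) passed. The absorptive colonocyte list did not (-0.39, adjusted p = 0.1495), nor did the other marker lists (0.1216 to 0.8448). Of 10 absorptive colonocyte markers 5 fell, 0 rose and none was at 0, and their summed level was 8789 to 17860 CPM with DSS and 12220 to 18970 CPM with water. Which cells the Trpa1 counts came from was not tested. Of 8 enterochromaffin cell markers 3 rose and 1 fell, and their summed level was 259.4 to 426.8 CPM with DSS and 207.2 to 340.7 CPM with water. In LAO1KO the median of this sum was lower with DSS, 274.3 CPM, against 337.9 CPM with water. Tph1, the serotonin-synthesis enzyme that defines these cells, averaged 22.2 ± 5.53 CPM with DSS and 19.4 ± 3.04 CPM with water (SD, n = 9 each, edgeR adjusted p = 0.287). Of 11 enteric neuron and glia markers 9 rose, at 172.9 to 372.0 CPM in sum with DSS and 104.4 to 235.9 CPM with water, and 1 rose without the 3 libraries that stood apart. The 9 became 3 without DKO DSS replicate B or without LAO1KO DSS replicate B, 4 without WT DSS replicate C, and 5 without DKO DSS replicate C or WT water replicate A or B.

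Of 8 fibroblast markers 1 fell, where 15.9% of all genes were called. It was Pdgfra, which kept its call in 8 of the 18 fits that left out 1 library. The fibroblast list stood at 352.2 to 783.7 CPM in sum with DSS and 369.6 to 1208 CPM with water. Smooth muscle, adipocyte and B cell markers had 0 calls in edgeR, DESeq2 and limma, with 0 at an unadjusted p under 0.05. Smooth muscle sums were 3174 to 6544 CPM with DSS and 2163 to 8494 CPM with water, adipocyte sums 38.6 to 1079 and 42.7 to 540.3 CPM, and B cell sums 0.981 to 34.5 and 1.19 to 29.4 CPM. Of 8 macrophage markers 0 passed in edgeR, with 3 at an unadjusted p under 0.05, 1 called by DESeq2 and 4 by limma. Of 7 tuft cell and 6 endothelial markers 0 passed in any of the 3 tools, with 1 in each list at an unadjusted p under 0.05. Of 7 goblet cell markers 4 rose and 1 fell averaged over genotypes. Within WT 1 rose and 3 fell, where 12.9% of all genes were called. In LAO1KO and DKO 0 goblet cell markers were called, where 0.196% and 0.0159% of all genes were.

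An index of clock gene phase did not overlap between treatments. Its genes were chosen with earlier results of these data known. It was formed as the difference between 2 means of log2 CPM, that of 6 genes in phase with Dbp less that of 4 in phase with Arntl, and stood at 0.52 to 2.50 in DSS libraries and -2.15 to -0.04 in water libraries. It differed by 2.20 (exact permutation test within genotypes, two-sided, p = 0.00025, the smallest that 8000 arrangements can give; adjusted p = 0.00325 over 13 measures). Collection times are not given in the labels, so DSS and the time of day cannot be told apart for Trpm6, Trpa1 or any other gene here. The mitochondrial mRNA share differed by 11.9 percentage points (exact permutation test, p = 0.00275, adjusted p = 0.0141). With these mRNAs left out of the fit both channels were called lower with DSS. That fit keeps any other difference between libraries that goes with the share, whose part in these results was not tested.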

How the data were processed

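The authors deposited one table of raw counts per gene for 18 libraries. Per the labels' protocols, libraries came from a stranded mRNA kit read in pairs on a NovaSeq X. HISAT2 2.1.0 and StringTie 2.1.3b stand in the submitters' processing notes with Trimmomatic 0.38, FastQC 0.11.7, R 4.3.2, DESeq2 1.42.1 and the build GRCm38 (mm10), without role or order, and whether counting used strand is not given in the sources used here. Groups came from the labels, which call the replicates biological; the p-values measure the spread between these libraries.

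From the deposited counts, edgeR 4.0.16 (R 4.3.3) fitted 1 mean per group over all 18 libraries, with TMM scaling, filterByExpr and the robust quasi-likelihood test. P-values were adjusted by Benjamini-Hochberg over 18848 genes, with a threshold of 0.05. Standard errors were the log2 fold change over the square root of F, and intervals used the t quantile. Log2 CPM took a prior count of 2. Levels per kilobase used the longest coding transcript of GENCODE M21, which has the files' build. Total counts of 26003174 to 36553193 set the precision, and floors of 3 counts cover counting error only. Alternatives were DESeq2 1.42.0, limma 3.58.1 (voom with library weights), no low-count filter, a replicate block, mitochondrial mRNAs left out and each library left out in turn. A fit without the 3 libraries of lowest correlation was added after seeing the data. The edgeR fit was also run on simulated counts with known DSS changes, the same in every genotype. No genotype or interaction change and no outlying library was simulated.

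The members, the gene lists and the rules were chosen with earlier results of these data known. All members were named. Of other genes, the text gives counts for each list, names those that passed or stood nearest to the threshold or define a cell type, and names the nearest genes by correlation. Promoter sequences are from RefSeq, on GRCm38.p6, and 6 of 8 members matched. Gm24190, Gm14212 and Rpl14-ps1 overlap Trpm6, Trpm7 and Trpm4 on the other strand, so reads there could be shared if strand was not used.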

Additional observations from a re-analysis of the deposited data

How the results depend on the processing

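Averaged over genotypes, Trpm6 and Trpa1 were called lower with DSS under every alternative and in all 18 fits that left out 1 library, at -0.92 to -0.77 for Trpm6 (adjusted p 6.80e-05 to 0.00164) and -1.56 to -1.29 for Trpa1 (0.00227 to 0.0124). No called value reversed. Limma called 4 members there, adding Trpm4 (-0.18, adjusted p = 0.0495) and Trpv4 (0.80, 0.0208), and 2 in LAO1KO, adding Trpv4 (1.63, 0.00311); the cause was not tested. Leaving out 1 library gave 0 to 3 members in WT and 0 to 1 in LAO1KO, and without the 3 libraries that stood apart 1 passed in WT, with fewer samples. The 3 came without LAO1KO water replicate A, where Trpm7 passed (0.41, adjusted p = 0.0452). Same-letter libraries did not deviate together on average (mean r 0.02, -0.30 to 0.32, over 45 pairs). The labels do not say what the letters mark, and this mean cannot show that they mark nothing shared. With a replicate block 2, 2, 1 and 0 members passed averaged, in WT, in LAO1KO and in DKO, as without it. Over all genes the block gave 3388 calls for DSS averaged, against 2996 without it. Counts over all genes moved more. For DSS averaged edgeR called 2996 genes and limma 6179, with 1928 without DKO DSS replicate B. In WT it was 2428, with 981 without the 3 libraries and 777 without WT water replicate B. In LAO1KO it was 37, with DESeq2 at 674, limma 4990, no filter 60, no mitochondrial mRNAs 59, block 131 and the 3 libraries out 279. In DKO it was 3, with 174, 478, 13, 3, 6 and 120 under the same settings. For the LAO1KO interaction it was 0, with no filter at 2, block 1 and the 3 libraries out 3. For the DKO interaction it was 11, with DESeq2 at 492, limma 235, block 35 and the 3 libraries out 7. DESeq2 and limma called 298 and 933 for LAO1KO against WT under water (edgeR 10), 55 and 967 under DSS (16), 783 and 213 for DKO against WT under water (117), 149 and 459 under DSS (48) and 105 and 352 for DKO against LAO1KO (45). The block gave 178 for DKO against WT under water, and the 3 libraries out gave 34 and 26 for LAO1KO against WT under water and DSS. Leaving out 1 library gave 1 to 346 genes for DSS in LAO1KO, 1 to 23 in DKO, 0 to 47 and 0 to 148 for the LAO1KO and DKO interactions, 5 to 105 for LAO1KO and 30 to 387 for DKO against WT under water, and 9 to 23 and 24 to 59 under DSS. Depth limits Trpv6, Trpv4 and Trpa1, the scarcest members.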
